A study of Mus musculus with 2 samples.

Results

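The cells described here were the aged hematopoietic stem cells (HSCs) with the weakest accessibility at regions that gain accessibility with age. They were chosen by a score on the odd autosomes: the share of a cell's unique fragments that fell in 500-bp bins with at least 100 fragments over both libraries and a share of fragments at least 2 times as high in the aged as in the young library. The lowest 15% of aged cells were taken, which gave 510 members of 3405 aged cells, and of 8292 cells in the series. The other 2895 aged cells were the comparison, and the 4887 young cells are given beside them. Because the score used the odd autosomes, the comparisons below used fragments of the even autosomes, which entered the choice only as part of a cell's total and of its in-peak minimum and maximum, apart from the levels at 3 marker genes on odd autosomes, which are given as a description, and the scale of the 4 marker genes.

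HSCs are the rare bone marrow cells from which all blood cells arise, and they divide rarely. With age the pool of these cells expands, but each cell rebuilds blood less well, and its output shifts towards myeloid cells and platelets. Accessible chromatin, measured by how often the Tn5 transposase cuts a region, marks promoters and enhancers that transcription factors can reach.

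The series held 1 single-cell ATAC-seq library of young HSCs (10-week-old) and 1 of aged HSCs (20-month-old), both from C57BL/6 mice, with no treatment or transgene named in the labels. Bone marrow cells were sorted that carried Sca-1+, c-kit+ and CD150+ and were Lin-, CD34-, CD48-, Flt3- and, as the labels spell it, IL-7- (the study's methods stained the receptor of IL-7), and the number of mice in each pool was not given in the sources used here. The cells kept were called as cells by the authors and had 3000 to 20000 in-peak fragments, with a median of 9890 fragments in a young and 11020 in an aged cell. With 1 library per age, and with members and other aged cells from the same library, there were no replicates and no test was made. Intervals are exact 95% intervals of counting error only. Age, library and pool of mice cannot be told apart.

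The score itself describes how the members were chosen and is not a finding. Its median was 0.311% in members, 0.545% in the other aged cells and 0.178% in young cells. A median member had 31 fragments in the score bins, against 59 in another aged cell and 18 in a young cell. The last member inside the threshold had 35 of 9441 fragments in score bins (0.371%, counting interval 0.258 to 0.515%), and the first cell outside had 48 of 12946 (0.371%, 0.274 to 0.491%). The score had no gap at the threshold: 393 aged cells lay within 10% of it, 156 of them members. Whether the members were a separate type cannot be read from the score. Of the young cells, 4711 (96.4%) had a score at or below the threshold.

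On the even autosomes, members had less accessibility than the other aged cells at regions that gained with age and more at regions that lost it, and lay between the other aged cells and the young cells in both. Values are fragments per 10000 fragments of the same cells in peaks of the even autosomes. In the 1461 gained bins (aged over young share of 2 or more, 2.24% of the 65265 even bins with at least 100 fragments), members had 113.5, the other aged cells 181.2 and young cells 61.7. The ratio of members to other aged cells was 0.627 (0.617 to 0.637). In the 419 lost bins (share ratio of 0.5 or less, 0.642% of even bins), members had 26.4, the other aged cells 15.9 and young cells 39.7, a ratio of 1.66 (1.60 to 1.72). In 23971 stable bins (share ratio 0.9 to 1.1) the ratio was 1.016 (1.013 to 1.018). Gained bins were called with members among the aged cells, and the young value in them is low by the choice of bins.

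Differentially accessible regions (DARs) that the study lists from bulk ATAC-seq of HSCs were a set of regions found without these libraries. In the 225 open DARs on even autosomes (more accessible with age), members had 40.4, the other aged cells 57.0 and young cells 26.2 fragments per 10000, and the ratio of members to other aged cells was 0.709 (0.690 to 0.729). Members lay 53.7% of the way from the other aged cells to the young cells. In the 39 closed DARs (less accessible with age), members had 11.9, the other aged cells 9.87 and young cells 14.3, a ratio of 1.20 (1.14 to 1.27). Here members lay 45.4% of the way to the young cells. In both kinds of DAR the members stood between the other groups, and the intervals of the 3 groups did not overlap.

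**Figure D1:**
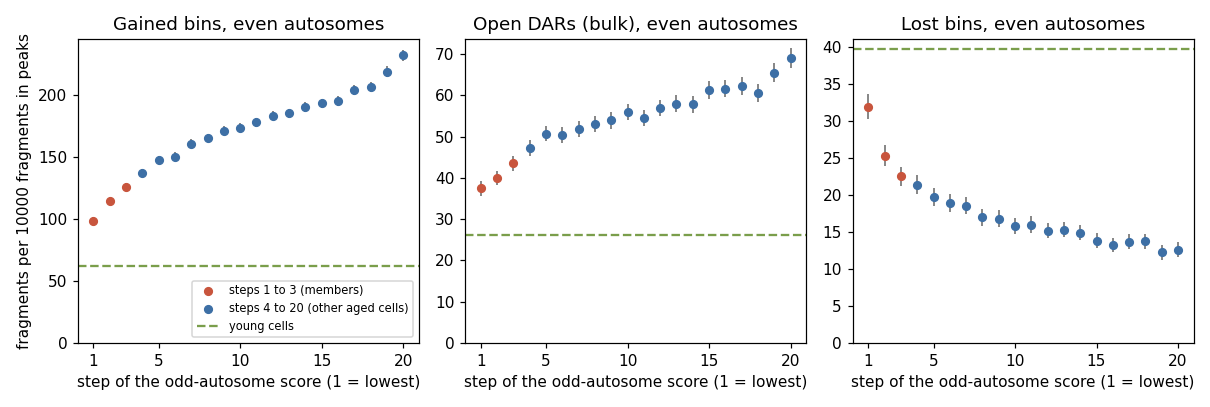
Fragments per 10000 in-peak fragments on even autosomes (y axis) in gained bins, open DARs and lost bins, for aged cells in 20 steps of 170 or 171 cells by the odd-autosome score (x axis). Points are sums over the cells of a step with 95% Poisson intervals, steps 1 to 3 are members (step 3 holds 3 other cells) and the dashed line is the value of young cells; gained bins go from 98.6 in step 1 to 232.0 in step 20.

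The difference was graded along the whole score. When aged cells were put into 20 steps by their odd-autosome score, the even gained bins went from 98.6 fragments per 10000 in the lowest step to 125.9 in step 3, 137.2 in step 4 and 232.0 in the highest step. Open DARs went from 37.5 to 69.0 and lost bins from 31.9 to 12.6. There was no break between step 3, which is almost all members, and step 4. Even the lowest step, at 98.6, stayed above the 61.7 of young cells in gained bins, and its open DARs, at 37.5, stayed above 26.2.

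The same held cell by cell. The median share of even in-peak fragments in gained bins was 1.13% in members (5th to 95th percentile 0.615 to 1.85%), 1.797% in the other aged cells (1.17 to 2.56%) and 0.579% in young cells (0.269 to 1.13%). Of the members, 478 (93.7%) were below the median of the other aged cells. When the lowest 15% of aged cells were taken by even gained bins instead, they held 312 members (61.2%, exact interval 56.8 to 65.4%) and 198 of the other aged cells (6.84%, 5.95 to 7.82%). At or below the 95th percentile of young cells were 252 members (49.4%) and 110 other aged cells (3.8%). At or below the young median were 21 members (4.12%) and 0 of 2895 other aged cells, which allows a share of up to 0.104% when 3 cells are taken as the limit of a count of 0 (the exact interval reached 0.127%). The members thus overlapped both groups, and few reached the level of a typical young cell. Over the 3405 aged cells, which share 1 library, the odd score and the even gained share had a Pearson r of 0.678 and a Spearman rank correlation of 0.674, while the odd score and the number of fragments had an r of -0.079. The odd score and a cell's share of fragments in peaks had an r of 0.264 and a Spearman rank correlation of 0.165.

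**Figure D2:**
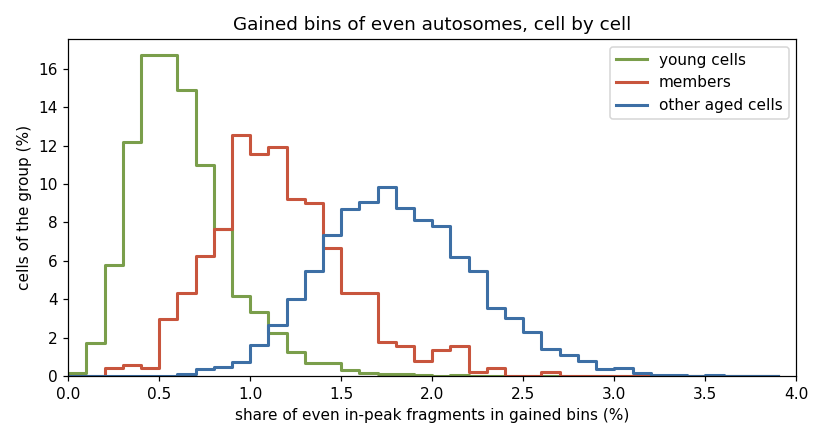
Share of a cell's even in-peak fragments in gained bins (x axis, %) against the percentage of cells of each group (y axis), in steps of 0.1 percentage points, for young cells, members and other aged cells. Medians are 0.579% in young cells, 1.13% in members and 1.797% in other aged cells, and the members overlap both.

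Every even autosome showed the same directions. In gained bins the ratio of members to other aged cells ranged from 0.583 on chromosome 14 to 0.661 on chromosome 4, and in lost bins from 1.55 on chromosome 8 to 1.91 on chromosome 12. The share of in-peak fragments on each even autosome differed little between the groups, with ratios from 0.986 to 1.005. No single chromosome carried the difference.

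**Figure D3:**
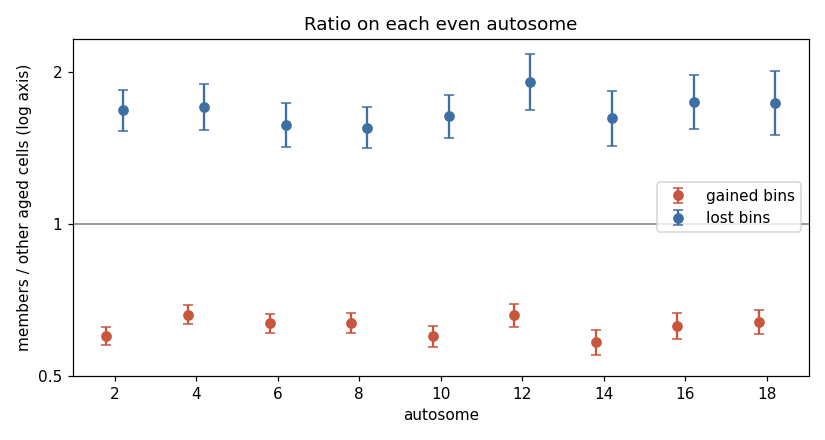
Ratio of members to other aged cells (y axis, log scale) in gained and in lost bins on each of the 9 even autosomes (x axis), with 95% counting intervals. Gained bins lie between 0.583 and 0.661 and lost bins between 1.55 and 1.91 on all of them.

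Library quality of members was close to that of the other aged cells, apart from a tail of members with fewer fragments in peaks. The median number of fragments was 11072 in members and 11019 in the other aged cells, the median TSS enrichment (cut density around transcription start sites over that of their flanks) was 5.31 in both, and the median share of fragments shorter than a nucleosome was 55.5 and 54.8%. Mitochondrial read pairs were 0.804 and 0.872%. Called doublets were 43 members (8.43%) and 205 other aged cells (7.08%). The median share of fragments in peaks was 59.4 and 60.9%, but the 5th percentile was 45.6 and 55.5%, and 48 of the 63 aged cells under 50% were members. When those 63 cells were left out and the lowest 15% taken again, the ratio in gained bins was 0.624 and in open DARs 0.715. Young cells were of another library with a higher in-peak share (median 63.3%) and more mitochondrial read pairs (1.84%). Of the cell barcodes, 26 occurred in both libraries, 5 of them in members. Without cells whose barcode was shared the ratio in gained bins was 0.626.

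Taken over all even peaks, members resembled young cells more than the other aged cells did. In a joint map of all 8292 cells from the peaks of even autosomes, a mean of 53.1% of the 20 nearest neighbours of a member were young cells, against 13.6% for another aged cell and 84.99% for a young cell, where young cells were 58.9% of all cells in the map. Young cells were the majority of neighbours for 271 members (53.1%) and 130 other aged cells (4.49%). The aged cells alone fell into 3 clusters in the same map. Members were 28 of 1510 cells (1.85%) in cluster 1, 179 of 1028 (17.4%) in cluster 2 and 303 of 867 (34.9%) in cluster 3. No cluster was made of members alone. Within clusters the ratio of members to other aged cells in gained bins was 0.804 (0.758 to 0.853), 0.715 (0.695 to 0.736) and 0.702 (0.686 to 0.718), so that the difference in gained bins was found inside each cluster, smaller than over all aged cells. For open DARs the ratios were 0.892, 0.765 and 0.767. For closed DARs they were 1.17 (0.921 to 1.46), 1.12 (1.01 to 1.24) and 1.07 (0.998 to 1.15), and the interval included 1 in clusters 1 and 3. The clusters were made from even peaks, which hold the gained bins, and are given as a description.

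Gained bins were mostly distal, and the lower accessibility of members was found in all kinds of them. Of the gained bins 48.7% lay in a protein-coding gene, 42.8% were intergenic and 8.42% lay within 1 kb of a TSS, against 44.6, 29.8 and 25.6% of all even bins. The ratio of members to other aged cells was 0.605 (0.590 to 0.620) in intergenic bins, 0.635 (0.620 to 0.649) in genes and 0.695 (0.659 to 0.733) at TSSs. Of the gained bins 174 (11.9%) overlapped an open DAR, with a ratio of 0.603, and the 1287 that overlapped no DAR had 0.632. The ratio was further from 1 where the 2 libraries differed more: 0.665 in bins with an aged over young share of 2 to 3, 0.560 from 3 to 5, and 0.485 (0.456 to 0.516) in the 102 bins at 5 or more. In those 102 bins members had 7.47, the other aged cells 15.4 and young cells 1.803 fragments per 10000. Taken one by one, 1235 of the 1461 gained bins (84.5%) were lower in members, against 43.9% of all even bins. Of the 419 lost bins 361 (86.2%) were higher in members, against 56.1% of all. These signs were taken with 1 fragment added to each count, which lifts members more because they hold fewer fragments. Members had a median of 8 fragments in a lost bin, 10 in a gained bin and 15 in any even bin. The shares of bins higher in members are overstated by this, most in lost bins.

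**Figure D4:**
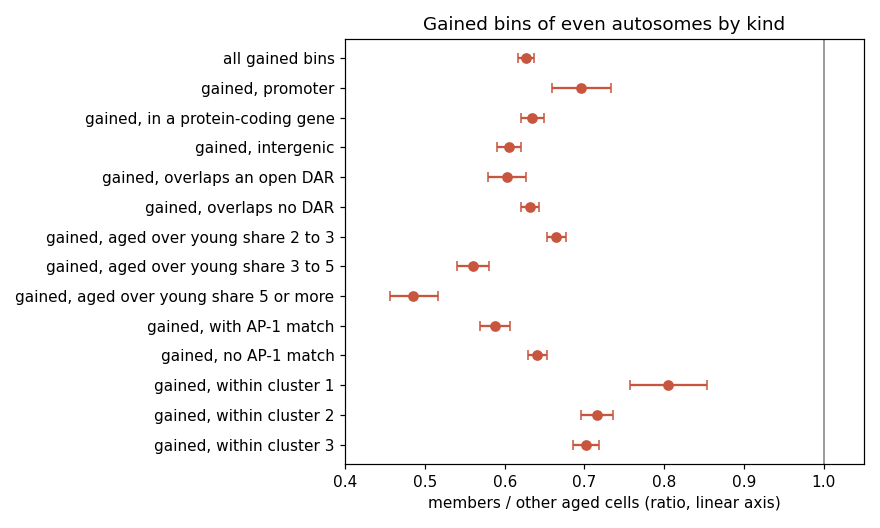
Ratio of members to other aged cells (x axis, linear) in even gained bins, in all of them and by place, overlap with DARs, aged over young share, AP-1 match and cluster of aged cells (y axis), with 95% counting intervals. All ratios lie below 1, from 0.485 in bins with a share ratio of 5 or more to 0.804 within cluster 1.

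Among single peaks, few passed a fixed fold. Of the 6820 even peaks with at least 400 fragments over the aged cells, 102 (1.5%) were at least 1.5-fold lower in members and 15 (0.22%) at least 1.5-fold higher, with 1 fragment added to each count. The median log2 ratio over these peaks was 0.04. Of the even in-peak fragments of aged cells, 8752640 came from the other aged cells and 1460359 from members. The minimum thus admits peaks high in the other aged cells more readily than peaks high in members. For this reason the numbers of lower and higher peaks cannot be set against each other. Per all even fragments, which members have more of outside peaks, 178 were lower and 4 higher, and with the other aged cells weighted to the in-peak share of members 111 were lower and 29 higher. Among the 2414 peaks with at least 800 fragments, 2 (0.083%) were lower and 0 higher. The named peaks below were chosen as the extremes of this comparison, so their sizes are a description and are overstated by that choice. Values are FPM, fragments per 1000000 fragments of the same cells in even peaks.

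The lowest peak lay in intergenic sequence of chromosome 2 (chr2:107231561-107232130, mm10), 58794 bp from the TSS of Kcna4, a voltage-gated potassium channel gene. Members had 11.6 (17 fragments), the other aged cells 44.4 (389 fragments) and young cells 0.439 (6 fragments). It overlapped an open DAR, and members were at a level between the other groups. The next was an intergenic peak on chromosome 6 (chr6:76387181-76388070), 108457 bp from Gm44166, at 18.5 in members, 58.5 in the other aged cells and 18.5 in young cells. An intron of Ctsb, the gene of the lysosomal protease cathepsin B, held the third (chr14:63131771-63132800), at 17.8, 48.0 and 18.0. An intron of Npas3, a gene for a transcription factor with PAS domains, held a peak (chr12:53484871-53485610) at 23.97, 63.4 and 22.8. An intron of Ank3, the gene of ankyrin-G, held a peak (chr10:69611751-69612330) at 26.7, 69.1 and 16.0. The log2 ratios of these 5 peaks ran from -1.85 to -1.34, and 4 of them overlapped an open DAR. The share of all even peaks that overlap a DAR was not taken. At 3 of the 5 (near Gm44166, in Ctsb and in Npas3) the counting intervals of members and young cells overlapped.

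The 5 highest peaks had smaller ratios, with log2 values from 0.68 to 0.85. The minimum, which favours peaks high in the other aged cells, bears on this too. They lay in introns of Chst11, a chondroitin sulfotransferase gene (66.4 in members, 37.0 in the other aged cells and 52.6 in young cells), Zfhx3, a zinc finger homeobox gene (74.0, 42.4 and 55.1), Ahi1, a gene for a ciliary protein (61.6, 38.2 and 45.9), and Rmi2, a gene of the BLM helicase complex (65.1, 41.0 and 59.7), and at the TSS of Arhgap45 (63.0, 36.6 and 46.4). In each of them members and young cells both stood above the other aged cells. Members were above young cells in all 5, with intervals that overlapped those of young cells in Chst11, Ahi1 and Rmi2 and not in Zfhx3 and Arhgap45. None of the 5 overlapped a DAR. Only 34 open and 9 closed even DARs had at least 400 fragments, beside 6820 even peaks, so this says little about the 5.

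**Figure D5:**
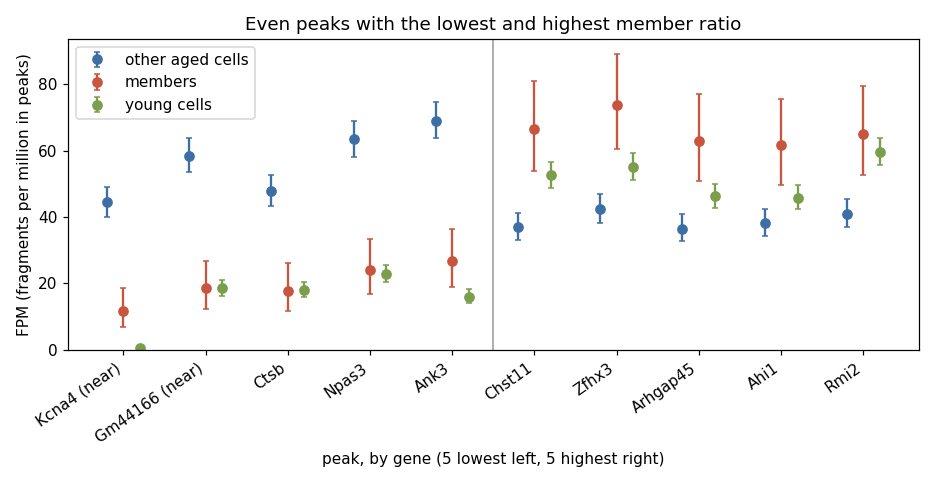
FPM (y axis) in other aged cells, members and young cells for the 5 even peaks with the lowest (left of the line) and the 5 with the highest ratio of members to other aged cells (x axis, by gene), with 95% Poisson intervals. In the left group members are at 11.6 to 26.7 and other aged cells at 44.4 to 69.1; in the right group members are at 61.6 to 74.0 and other aged cells at 36.6 to 42.4.

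Motifs of 19 transcription factors or families were looked for by their consensus letters, on either strand. The AP-1 consensus TGANTCA, bound by Fos and Jun dimers, was in 385 of the 1461 gained bins (26.4%), against 14.7% of all even bins and 16.8% of those more than 1 kb from a TSS. In gained bins with AP-1, members had 28.5 fragments per 10000, the other aged cells 48.5 and young cells 16.1. The ratio of members to other aged cells was 0.587 (0.569 to 0.606) in gained bins with AP-1 and 0.641 (0.629 to 0.653) in those without it, so that the intervals did not overlap. The ISRE, the response element of interferon regulatory factors, was also more common in gained bins, at 10.6% against 7.91% of all and 8.55% of distal bins. Its ratio ran the other way, at 0.673 (0.640 to 0.706) with it and 0.621 (0.611 to 0.632) without. STAT (TTCNNNGAA) was in 18.0% of gained bins against 14.1% of all and 15.05% of distal bins, with a ratio of 0.611 (0.588 to 0.634) with it and 0.630 (0.619 to 0.641) without. CEBP (TTGCNNAA) was in 22.7% against 18.5 and 19.6%, with 0.604 (0.584 to 0.625) and 0.633 (0.622 to 0.645). In lost bins, PU.1 (GAGGAAGT), the Ets factor of myeloid and lymphoid cells, was in 16.5% against 6.81% of all and 7.87% of distal bins, with a ratio of 1.67 with it and 1.66 without. The TAL E-box (CAGATG), bound by TAL1 with E proteins, was in 39.4% of lost bins against 30.5% of all and 33.1% of distal bins, with a ratio of 1.78 (1.69 to 1.89) with it and 1.59 (1.51 to 1.66) without. MEIS (TGACAG) was in 40.6% of lost bins against 30.6 and 32.3%, with 1.74 (1.65 to 1.84) and 1.61 (1.53 to 1.69). RUNX was in 6.92% of lost bins, with 1.92 (1.70 to 2.17) and 1.64 (1.58 to 1.70). The motifs printed here are a selection of the 19. A match in a bin of 500 bp is a description of the sequence and not a site.

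In single distal peaks (more than 1 kb from a TSS), 84 of 2966 with at least 400 fragments (2.83%) were at least 1.5-fold lower in members and 11 (0.371%) higher. The minimum favours peaks high in the other aged cells here too, so lower and higher counts are not compared with each other. With AP-1 within 200 bp around the centre, 14 of 295 (4.75%) were lower and 0 higher. With STAT 11 of 192 (5.73%) were lower and 1 higher. Lower were also, with CEBP 13 of 248 (5.24%), and with the CNC consensus of Nrf2 and Bach factors 3 of 31 (9.68%). The CNC consensus contains a match to AP-1, so these 3 peaks are among the 14 with AP-1. The median log2 ratio with CNC was 0.0086, against -0.0016 in all distal peaks. In gained bins the ratio of members to other aged cells was 0.643 (0.575 to 0.716) with CNC and 0.626 (0.616 to 0.636) without. The motifs of RUNX, FOX, ISRE, HOXA9, TAL E-box and GATA also lay above the share of all distal peaks. Below that share, E2A (CAGCTG) had 5 of 458 lower (1.09%) and KLF/SP (GGGCGGGG) 1 of 247 (0.405%). MYB (AACTGCC) had 1 of 92 lower and 2 higher, and ATF/CRE (TGACGTCA) 0 of 34 lower and 1 higher. PU.1, ETS, MEIS, CTCF and NFKB lay below it too. The shares were not adjusted for GC content, which differed between motifs. The median log2 ratio of every one of the 19 motifs stayed within 0.072 of the median of all distal peaks, with AP-1 at -0.05 and NFKB (GGGANTTCC) at 0.07. Most distal peaks with a given motif, like most distal peaks, differed by less than 1.5-fold.

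The centres of 4 even peaks are shown to set the sequence beside these values: the lowest of all, a pair of those lowest among distal peaks with AP-1, and the second highest. Each is 200 bases of the plus strand, GRCm38 (mm10), from RefSeq, and capitals mark matches to any of the 19 consensus sequences. The first, near Kcna4 (chr2:107231746-107231945), holds none of them. The second, in an intron of Mall (chr2:127722456-127722655), holds AP-1 at a pair of places, and had 28.8 in members, 57.7 in the other aged cells and 39.0 FPM in young cells. The third, in an intron of Dok5 (chr2:170826996-170827195), holds AP-1 once, at 22.6, 46.3 and 21.9. The last, in Zfhx3 (chr8:108749086-108749285), holds a match to MYB (AACTGCC). Over all even distal peaks, AP-1 was in 10.1% and MYB in 3.43% of the windows of this length.
Kcna4: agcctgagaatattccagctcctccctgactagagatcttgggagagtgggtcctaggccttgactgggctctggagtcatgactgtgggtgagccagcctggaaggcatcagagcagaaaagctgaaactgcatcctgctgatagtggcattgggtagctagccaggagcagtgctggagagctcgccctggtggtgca
Mall: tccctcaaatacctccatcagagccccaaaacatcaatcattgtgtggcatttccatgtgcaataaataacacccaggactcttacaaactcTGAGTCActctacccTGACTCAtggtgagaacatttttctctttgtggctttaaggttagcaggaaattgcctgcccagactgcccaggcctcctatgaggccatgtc
Dok5: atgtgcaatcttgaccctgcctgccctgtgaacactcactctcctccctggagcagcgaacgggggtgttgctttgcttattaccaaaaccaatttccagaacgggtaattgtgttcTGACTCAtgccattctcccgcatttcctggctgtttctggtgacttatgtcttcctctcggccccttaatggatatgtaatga
Zfhx3: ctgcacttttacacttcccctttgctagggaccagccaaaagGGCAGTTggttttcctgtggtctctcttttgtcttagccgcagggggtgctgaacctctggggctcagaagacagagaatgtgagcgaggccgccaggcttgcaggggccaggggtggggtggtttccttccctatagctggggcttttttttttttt

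Of the open DARs on even autosomes, 223 had fragments in aged cells, and 186 of them were lower in members and 37 higher, with a median log2 ratio of -0.50. Of all even bins with at least 100 fragments, 43.9% were lower and 56.1% higher in members. The signs of bins and of DARs were taken with 1 fragment added to each count, which lifts members. The median log2 ratio of all even peaks with at least 400 fragments was 0.04. The 34 with at least 400 fragments included 13 that were at least 1.5-fold lower in members, against 1.5% of all even peaks with as many fragments. Of the 190 with at least 100 fragments, 148 had a value in members between those of the other aged cells and of young cells. Of the 38 closed DARs with fragments, 33 were higher in members, with a median of 0.34, and 23 of the 33 with at least 100 fragments lay between the other groups. The share of all even regions that lay between the other groups was not taken, so these 2 counts are a description. None of the 9 closed DARs with at least 400 fragments passed the fold, where 0.22% of all even peaks did.

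Of the open DARs with the most fragments, 1 lay in an intron of Gm42889, 582 bp from its TSS (chr6:67532559-67533585), where members had 102.0, the other aged cells 110.8 and young cells 75.03 FPM, and another lay in an exon of Pcca, a gene of propionyl-CoA carboxylase, with 91.1, 95.3 and 87.5. Next to the TSS of Ptprk, a receptor tyrosine phosphatase gene (chr10:28074313-28075281), it was 71.9, 83.9 and 52.6. The intervals of the log2 ratio of these 3 included 0. Next to the TSS of Stxbp5l, a gene for a syntaxin-binding protein (chr16:37384694-37385441), members had 59.6, the other aged cells 85.2 and young cells 53.8, a log2 ratio of -0.50 (-0.85 to -0.19). In Gcc1 (chr6:28421405-28422014) the 3 groups had 83.5, 83.3 and 75.5. The closed DARs with the most fragments, in introns of Tbpl1 (80.8, 79.7 and 90.6) and of Adgrg1, an adhesion receptor gene of HSCs (67.1, 64.0 and 79.6), and near Dlk1 (50.7, 59.2 and 63.7), had intervals that included 0.

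The marker genes of the label were read next. Values for them are FPM against the peaks of all chromosomes, over the gene body with 2 kb upstream. Clu, the gene of clusterin and the only one of the 4 on an even autosome (chromosome 14), had 65.2 in members, 78.8 in the other aged cells and 55.04 in young cells, a log2 ratio of members to other aged cells of -0.27 (-0.49 to -0.07). Members thus stood between the other groups. Selp, which encodes P-selectin, Slamf1, which encodes CD150, the receptor used in the sort, and Mecom, a regulator of HSC self-renewal, lie on odd autosomes and are given as a description. Selp had 110.5 in members, 121.6 in the other aged cells and 93.9 in young cells (log2 ratio -0.14, -0.30 to 0.02). Slamf1 had 57.0, 72.9 and 52.4 (-0.35, -0.58 to -0.14). Mecom had 957.5, 986.8 and 877.0 (-0.04, -0.10 to 0.01). The intervals of Selp and Mecom included 0. The body of Mecom held 1 score bin, which the choice of members used, and that of Clu 2 gained bins. Promoters of the 4 genes held fewer fragments, and the log2 ratio of members to other aged cells there was -0.59 (-1.15 to -0.08) for Selp, -0.17 (-0.42 to 0.07) for Clu and 0.04 (-0.51 to 0.56) for Slamf1, while that of Mecom had 3 fragments in members and 9 in the other aged cells. Members had at least 190 fragments over each gene body, which was not set against a background level.

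Gene bodies differed little. Of 6388 even protein-coding genes with at least 400 fragments, 9 (0.141%) were at least 1.5-fold lower and 23 (0.36%) higher in members. As for peaks, the minimum was over all aged cells. Their median log2 ratio was 0.10, and per all even fragments, in peaks or not, it was -0.01. The split depended on the share of fragments in peaks: per all even fragments 20 were lower and 5 higher, and with the other aged cells weighted to the in-peak share of members 25 were lower and 9 higher. The lowest were Fam84a (26.0 in members, 51.6 in the other aged cells and 18.7 in young cells), Lurap1l (38.3, 71.6 and 47.3), Lrrtm1, a synaptic adhesion gene (26.7, 45.5 and 17.5), Zfp804a, a zinc finger gene (45.9, 77.2 and 34.4), and Bbox1, an enzyme gene of carnitine synthesis (38.3, 64.0 and 26.4). At all 5, young cells were below the other aged cells too. The highest were Drc7, a gene of the dynein regulatory complex of cilia (78.1, 40.8 and 51.0), Pkd1l2, of the polycystin family (207.5, 112.0 and 134.1), Tmem72 (67.1, 38.8 and 55.9), Slc6a12, a betaine and GABA transporter gene (65.7, 38.2 and 65.4), and Rapsn, which anchors acetylcholine receptors (79.4, 48.4 and 62.7). At all 5, young cells were above the other aged cells, and members were above young cells. Members and young cells were close at Slc6a12 (65.7 and 65.4) and further apart at Pkd1l2 (207.5 and 134.1) and Drc7 (78.1 and 51.0). The difference between members and young cells at these genes was not tested. The 5 lowest genes were also higher in cluster 1 than in the rest, with ratios from 1.40 (Zfp804a) to 1.76 (Lrrtm1). That cluster held 5.49% of members and 51.2% of the other aged cells. Pkd1l2 (1.73) and Rapsn (1.74) were higher in cluster 3, which held 59.4% of members and 19.5% of the other aged cells. Differences at these genes within clusters were not tested. Pkd1l2 and Drc7 had intervals of members wholly above 1.5-fold: the log2 ratio was 0.89 (0.70 to 1.08) for Pkd1l2 and 0.95 (0.62 to 1.24) for Drc7. With the other aged cells weighted to the in-peak share of members, Pkd1l2 (0.46) and Rapsn (0.43) no longer passed 1.5-fold, while Drc7 stayed at 0.87 and the 5 lowest genes between -1.04 and -0.65.

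In 14 lists of genes for cell types and pathways, 133 genes lay on even autosomes and 116 had at least 400 fragments. None of the 116 passed 1.5-fold in either direction, where 0.141 and 0.36% of all gene bodies did. The lowest was Clec1b and the highest Blk. Counting intervals of the log2 ratio were wholly above 0 for 22 of the 116 and below 0 for 5, where 23.1% of all gene bodies were above and 2.29% below, so that an interval above 0 was common on this scale. Medians of the lists are read against 0.10, the median of all gene bodies.

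Genes of HSC aging had a median of -0.08, with 9 of 14 below 0, the lowest after stromal and endothelial genes. Ptprk had 600.5 in members, 647.2 in the other aged cells and 431.7 FPM in young cells (log2 ratio -0.11, -0.21 to -0.01), and Jam2, a junctional adhesion gene, 241.7, 275.1 and 184.1 (-0.18, -0.35 to -0.02). Itga6, an integrin gene, had 568.4, 559.4 and 502.2, and Vwf, the von Willebrand factor gene of platelets and platelet-biased HSCs, 514.9, 538.4 and 495.4, with intervals that included 0. Cd9, a tetraspanin gene, ran the other way, with 358.8, 319.5 and 288.5 (0.17, 0.03 to 0.30). Counting intervals were wholly below 0 for 3 of the 14 genes and above 0 for 1. Of the 15 stem cell genes, 5 were below 0 and the median was 0.02. Hoxa9, at 208.2 in members and 208.7 in the other aged cells, was above 0 only through the fragment added to each count. Prdm16, a regulator of HSC maintenance, had 1604.4, 1588.3 and 1437.9. Runx1, a transcription factor that HSCs arise through, had 1485.3, 1340.1 and 1358.9 (0.15, 0.08 to 0.21), and Erg, an Ets factor of HSCs, 1071.7, 963.9 and 958.6 (0.15, 0.07 to 0.23). Mllt3 had 873.8, 965.1 and 932.3 (-0.14, -0.23 to -0.06).

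Lists of other blood cells were read as a check on whether the members were cells of another kind. Of all gene bodies with at least 400 fragments, 76.9% were above 0 on this scale, and 47.7% when values were taken per all fragments on the even autosomes. Of megakaryocyte genes 4 of 8 were below 0 (median 0.02), and Clec1b, the platelet receptor CLEC-2, had 95.9 in members, 127.9 in the other aged cells and 109.9 in young cells (-0.41, -0.68 to -0.16), while Rab27b, of granule release, had 336.2, 344.8 and 303.0. Of erythroid genes 7 of 8 were above 0 (median 0.21, or 0.10 above that of all genes, and 0.03 above it with the weights for in-peak share), among them Ank1 (436.9, 414.2 and 395.3), Sptb, the gene of beta-spectrin (343.1, 307.7 and 346.5), and Tfrc, the transferrin receptor gene (152.0, 128.3 and 148.1). Intervals were above 0 for 4 of the 8, Aqp1, a water channel gene (0.28, 0.05 to 0.50), and Epb42 (0.42, 0.04 to 0.77) among them, and for Ermap, under 400 fragments, with 47 fragments in members and 162 in the other aged cells (0.82, 0.30 to 1.27). Of myeloid genes 6 of 6 were above 0 (median 0.16, or 0.06 above that of all genes), among them Spi1, the gene of PU.1 (345.8, 332.9 and 343.0), and Csf1r (208.9, 178.0 and 196.5), the only one of the 6 with an interval above 0. Of 4 myeloid genes under 400 fragments, Cebpe, with 38 and 148 fragments, had one (0.65, 0.07 to 1.14). Lymphoid progenitor genes had a median of 0.09 over 3 genes, with Notch1 at 507.4, 476.7 and 494.4 and Cd52, a surface antigen of lymphocytes, at 70.5, 52.2 and 63.2 (0.44, 0.11 to 0.75), while Rag2 had 96.6, 99.97 and 103.1. Rag1, a recombinase gene of lymphoid cells, was under 400 fragments, with 28 fragments in members and 73 in the other aged cells (1.23, 0.52 to 1.85). B cell genes had a median of 0.08 over 5, with Pax5 at 286.2, 296.7 and 295.4 and Blk, a B cell kinase gene, at 136.3, 100.3 and 123.8 (0.45, 0.21 to 0.67). Vpreb1, of the surrogate light chain, also had an interval above 0 (0.37, 0.09 to 0.62), and 0 of 2 B cell genes under 400 fragments did. T and NK cell genes had a median of -0.0038 over 5, with Gata3 at 541.0, 525.7 and 454.9 and Themis, a T cell gene, at 92.4, 70.6 and 63.6 (0.40, 0.11 to 0.66). The other 3 were below 0 with intervals that included it: Lck had 223.2, 224.4 and 238.5, Klrb1c 49.3, 52.0 and 46.5 and Bcl11b 146.5, 158.7 and 121.5. Of 4 genes under 400 fragments, intervals were above 0 for Cd4, with 64 fragments in members and 253 in the other aged cells (0.62, 0.18 to 1.001), and Cd8a, with 11 and 18 (1.92, 0.64 to 3.03), and included 0 for Prf1 (-0.23) and Gzmb (0.39). The part of lymphoid cells in these values was not tested. Stromal and endothelial genes had a median of -0.09 over 5, with Pdgfrb at 186.3, 151.5 and 156.1 (0.30, 0.10 to 0.49), opposite to the median, and Cxcl12 at 89.7, 99.3 and 82.3, Col1a2 at 60.9, 65.4 and 56.4 and Lepr at 34.9, 43.2 and 25.01, whose intervals included 0. Lum, under 400 fragments, had 17 and 54 (0.97, 0.04 to 1.72). At these genes under 400 fragments with an interval above 0, members were above young cells too. In members, other aged cells and young cells, Rag1 had 19.2, 8.34 and 11.4 FPM and Cd4 43.8, 28.9 and 36.6. Cd8a had 7.53, 2.06 and 2.85, and Ermap 32.2, 18.5 and 27.1. Cebpe had 26.0, 16.9 and 20.4, and Lum 11.6, 6.17 and 6.00. Members were not tested against young cells at these small counts. Relative to the median of all genes, the weights for in-peak share moved the median of megakaryocyte genes from -0.09 to -0.14, of myeloid genes from 0.06 to 0.09, of lymphoid progenitor genes from -0.01 to -0.08, of B cell genes from -0.02 to -0.06 and of T and NK cell genes from -0.11 to -0.02, while stromal and endothelial genes went from -0.19 to -0.20.

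The summed level per cell differed between members and the other aged cells in some of these lists. The median over cells of fragments in myeloid genes was 12.1 per 10000 in-peak fragments in members and 11.1 in the other aged cells, in erythroid genes 13.6 and 11.7, in B cell genes 6.26 and 5.63, in T and NK cell genes 10.3 and 10.1, and in stromal and endothelial genes 3.61 in both. Lymphoid progenitor genes had 6.36 and 5.84, and megakaryocyte genes 13.7 and 14.2. No background was taken for these medians, and gene bodies as a whole had a median log2 ratio of 0.10. A median over cells cannot show a small group of cells. Whether a few cells of another kind were among the members was not tested further.

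Medians of pathway lists lay between 0.02 and 0.19. Of cell cycle genes 11 of 12 were above 0 (median 0.19, or 0.09 above that of all genes, and 0.05 above it with the weights for in-peak share), beside 76.9% of all gene bodies. Pcna is among the 11 only through the fragment added to each count. Cdk1, the kinase of mitotic entry, had 151.3 in members, 114.7 in the other aged cells and 138.9 in young cells (0.40, 0.18 to 0.61), and Ccne2, the gene of cyclin E2, 141.1, 107.9 and 123.8 (0.39, 0.16 to 0.61), while Ccnd2 had 445.8, 434.2 and 457.9 and Pcna 189.7, 190.2 and 198.8. Immediate early genes, the AP-1 subunits among them, had a median of 0.02 over 12, with Jun at 408.8, 383.3 and 342.7 and Junb at 362.2, 383.5 and 381.7. Interferon genes had 0.07 over 10, JAK and STAT genes 0.02 over 7, with Jak1 at 802.5, 792.9 and 752.1, and genes of CNC factors and Nrf2 targets 0.05 over 10, with Bach2 at 1472.9, 1395.0 and 1246.2 and Nfe2l2, the gene of Nrf2, at 510.8, 506.9 and 486.9.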

How the data were processed

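Single-cell ATAC-seq of HSCs was analysed in 1 young and 1 aged library, grouped by the labels. The authors aligned reads to mm10 with Cell Ranger ATAC and called cells, and the deposited files list unique fragments and hold counts per barcode with no normalization. The labels also name Signac. The files listed 53786133 young and 48333115 aged fragments.

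Cells with 3000 to 20000 in-peak fragments in the authors' table were kept. Fragments were placed by their midpoint. Peaks were called here on cut sites (Poisson tail in 151-bp windows, set against whichever was higher of the genome mean and the 10000 bp around, q under 0.001, merged over both libraries). Clusters came from a latent semantic index of even peaks (components 2 to 30, 20 neighbours, Leiden resolution 0.6, leidenalg 0.10.2). Doublets were called from loci covered by at least 3 fragments of a cell and were kept. Gene annotation was GENCODE M21. Only the coordinates and direction of the study's bulk DARs were used, and 546 of 547 lay on assembled chromosomes. Ratios have exact binomial and sums exact Poisson intervals. The log2 ratios of peaks, genes, single bins and single DARs add 1 fragment to each count.

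The members, gene lists and motifs were chosen with earlier results of these data known. Named genes are the 4 markers, the list genes past 1.5-fold or with the most fragments (a selection is printed; Jam2, Clec1b, Blk, Cdk1, Ccne2, Csf1r, Junb, Mllt3, Rag1, Cd52, Themis, Cd4, Cd8a, Pdgfrb, Cxcl12, Col1a2, Lepr, Cd9, Aqp1, Epb42, Ermap, Cebpe, Rag2, Vpreb1, Lck, Klrb1c, Bcl11b, Prf1, Gzmb and Lum were added after their values were seen), the 5 lowest and 5 highest peaks and genes, and the DARs with the most fragments. The peaks whose sequence is shown for AP-1 were also chosen after their values were seen, and chromosome 18 was left out of that choice. Scripts were tested on simulated data, with Python 3.11.15, numpy 2.4.6 and scipy 1.17.1.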

Additional observations from a re-analysis of the deposited data

How the results depend on the processing

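Under 13 other ways of processing and 2 more chosen after the data were seen (without cells under 50% of fragments in peaks, and without shared barcodes), each of the 4 ratios of members to other aged cells on even autosomes kept its direction. They ranged from 0.580 to 0.675 in gained bins, 1.5 to 1.79 in lost bins, 0.657 to 0.763 in open DARs and 1.11 to 1.23 in closed DARs. Beyond the counting interval, values per all even fragments gave 0.580, 1.54, 0.657 and 1.11 in that order. Thinning to 3000 in-peak fragments (259 cells left out as shallower) gave 0.673, 1.5 and 0.755 in the first 3. Taking the lowest 10% gave 0.5998, 1.76 and 0.690, and the lowest 25% 0.675, 1.57 and 0.759. A score on even and comparison on odd autosomes gave 0.652, 1.79 and 0.755. Bins of 200 or more fragments gave 0.661 in gained bins and 0.763 in open DARs, and score bins of ratio 3 or more 0.663 and 0.746. Bins found from all listed fragments gave 0.613 in gained bins. In lost bins, a score per odd in-peak fragments gave 1.60 and weighting to the in-peak share of members 1.55. Membership itself moved more than the ratios: 63.7% of the cells chosen on even autosomes, and 74.5% of those chosen after thinning, were members. With score bins of ratio 3 or more it was 67.6%, and with bins of 200 or more fragments 69.8%.

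The number of even peaks past 1.5-fold, 117, became 182 (178 lower and 4 higher) per all even fragments and 2 of 2414, both lower, with a minimum of 800 fragments. Of 99 medians of gene lists and motifs under other scalings and weights, 96 moved by at most 0.05 on the log2 scale relative to all features. Values per all even fragments shift every feature alike, so the medians under that scaling could not move and do not count as stability. The 3 that moved further were erythroid, lymphoid progenitor and T and NK cell genes, under the weights for in-peak share. Of the motif medians, 6, at most 0.0102 from that of all features, changed sign. A member's score rests on a median of 31 fragments, which limits how well single cells are placed. No paired analysis was possible because each age has 1 library.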
